A study of Mus musculus with 16 samples.

Results

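The comparison of LSD1-mKO with wild type (WT) gastrocnemius (Gas) after dexamethasone was formed by the genotype and tissue labels and held 8 of the 16 RNA libraries of the series. The Gas is a hind limb muscle composed mostly of fast fibers. The 3 WT and 5 LSD1-mKO libraries came from male C57BL/6 mice aged 8 weeks. The LSD1-mKO mice were Lsd1 flox/flox; Tg ACTA1-CreERT2/+, and the WT mice were Lsd1-floxed without CreERT2. Every mouse of both genotypes received tamoxifen (75 mg/kg on 5 days) and dexamethasone (Dex, 1 mg/kg on 7 days, from day 4 of tamoxifen). No muscle without Dex enters the comparison. The human ACTA1 promoter drives the recombinase in differentiating and differentiated muscle cells, so satellite cells, vessels, nerve and connective tissue were not targeted. Because WT mice carried no recombinase, an effect of the transgene and an effect of the deletion cannot be told apart. Of the 24421 genes in the count table, 13040 passed the filter on low counts and were tested.

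LSD1, encoded by Kdm1a, is a flavin-dependent demethylase of histone H3 that removes methyl groups from lysine 4 as part of the CoREST repressor complex and can also act on lysine 9 with nuclear receptors. It depends on FAD and thereby links chromatin to metabolism. Dex is a synthetic glucocorticoid that binds the glucocorticoid receptor and causes wasting that affects fast fibers more than slow fibers. Muscle fibers also respond to the loss of nerve activity with a well described set of genes, among them the subunits of the acetylcholine receptor, whose transcription is normally limited to the nuclei under the synapse.

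Each library held between 10130415 and 21594751 reads in genes, and 3 reads in a library, the limit set by a count of 0, came to between 0.139 and 0.296 CPM (the reads of a gene scaled to a fixed library total). These limits use raw totals, whereas the CPM of genes use TMM-scaled totals (factors of 0.855 to 1.09), so the scales differ somewhat. WT Gas 3 lay apart from the rest: its coordinate on principal component 1 (49.6% of the variance) was 89.6, against a range of -30.4 to 22.4 in the other 7 libraries. Ribosomal protein genes averaged 8.75 log2 CPM in WT Gas 3 and 8.08 in LSD1-mKO Gas 5, and between 7.26 and 7.66 in the other 6. The markers of fast muscle summed to 228991 to 268375 CPM in WT and 172630.0 to 241580.0 CPM in LSD1-mKO, and those of slow muscle to 1229.8 to 2605 CPM in WT and 1941 to 2837 CPM in LSD1-mKO, so fast markers far exceeded slow markers in each library, as the tissue label states. Many results that lean on WT Gas 3, though not all, are given with and without it. In bulk muscle, fewer cells of a type and less RNA per cell cannot be told apart.

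The targeted gene separated the genotypes. Kdm1a had 37.8, 35.5 and 45.2 CPM in WT and 12.6, 12.5, 16.6, 14.0 and 11.3 CPM in LSD1-mKO, with every LSD1-mKO library below every WT library (log2 fold change -1.56, SE 0.177, adjusted p 0.0163, edgeR quasi-likelihood test). The residual level averaged 13.4 ± 2.04 CPM (SD, n = 5) against 39.5 ± 5.09 CPM (SD, n = 3). Esr1, the gene of estrogen receptor alpha, had 20.3, 15.5 and 10.4 CPM in WT and 886, 1456, 645, 1131 and 606 CPM in LSD1-mKO (log2 fold change 5.93, SE 0.441, adjusted p 0.000888, edgeR). The recombinase is fused to a mutated part of this receptor, and a count per gene does not separate reads of the transgene from reads of Esr1 itself.

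Across all genes, 8 of 13040, or 0.0613%, passed an adjusted p of 0.05. Of these, Esr1, Myl6b and Chrna1 rose (0.023% of genes tested), and Kdm1a, Orm3, Dach2, Kcnab1 and the long non-coding RNA 9530091C08Rik fell (0.0383%). The number depended on the test: edgeR's older quasi-likelihood form called 4 of these 8 and no other gene (0.0307%), RLE scaling 7 (0.0537%) and no filter on low counts 6 of more genes (0.0296%), whereas the edgeR exact test with gene-wise dispersions called 117 (0.897%), DESeq2 123 (0.936%) and limma voom with library quality weights 340 (2.61%), each of these last 3 including all 8. The latter 3 tools shared 88 calls, 52 higher and 36 lower in LSD1-mKO. An unadjusted p under 0.05 was reached by 9.32% of genes, 636 of them with higher values (4.88%) and 579 with lower values (4.44%) in LSD1-mKO, and in 7.01% the 2 genotypes did not overlap, 534 of them higher (4.1%) and 380 lower (2.91%). The median log2 fold change of all genes was 0.01.

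**Figure D1:**
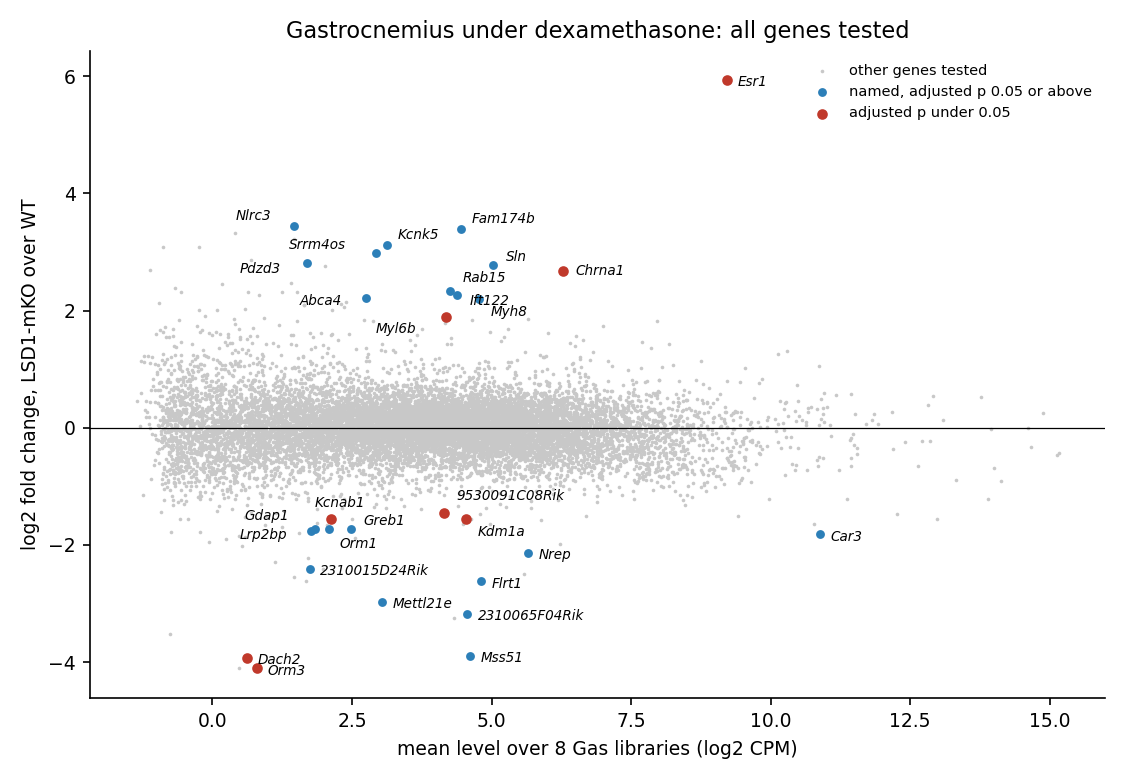
Log2 fold change (LSD1-mKO over WT) against the mean level over the 8 Gas libraries (log2 CPM), 1 point per gene tested. Red points mark the 8 genes with an adjusted p under 0.05, blue points the 21 other named genes, none of which passed it. Esr1 stands alone at 5.93, and most genes lie close to 0.

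Among the genes that rose, Myl6b had the smallest SE. Myl6b (chromosome 10, 128494157 to 128498685, GRCm38) encodes an essential light chain of myosin that is found in slow skeletal muscle and in non-muscle cells. It had 6.68, 5.85 and 7.77 CPM in WT and 25.0, 27.5, 23.01, 26.3 and 24.1 CPM in LSD1-mKO (log2 fold change 1.90, SE 0.179, adjusted p 0.00444, edgeR). The lowest LSD1-mKO library thus lay well above the highest WT library, and the SD within LSD1-mKO was 1.79 CPM. Chrna1 (chromosome 2, 73563281 to 73580338) encodes the alpha subunit of the muscle acetylcholine receptor. It had 16.9, 16.9 and 19.4 CPM in WT and 202, 133, 70.8, 71.9 and 89.8 CPM in LSD1-mKO (log2 fold change 2.68, SE 0.380, adjusted p 0.0472, edgeR). LSD1-mKO Gas 1 and 2 were the highest, and the lowest LSD1-mKO library was still above every WT library.

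Each of the genes that fell had a different role. Dach2 (chromosome X, 113297496 to 113836386), a transcriptional co-repressor that restrains myogenin in innervated muscle, had 2.72, 5.57 and 2.77 CPM in WT and 0.0446, 0.0653, 0.400, 0.455 and 0.324 CPM in LSD1-mKO (log2 fold change -3.92, SE 0.516, adjusted p 0.0389, edgeR), and averaged 24.9 reads per library. Orm3 (chromosome 4, 63356069 to 63359506), an orosomucoid of the acute phase, had 4.51, 5.85 and 2.23 CPM in WT and 0.0893, 0.261, 0.200, 0.637 and 0.162 CPM in LSD1-mKO (log2 fold change -4.11, SE 0.479, adjusted p 0.0163, edgeR), with 29.4 reads on average. Both genes were near the counting limit in LSD1-mKO, and Orm3 has close paralogs whose shared reads were left out of the counts. Kcnab1 (chromosome 3, 64949212 to 65378225), a beta subunit of voltage-gated potassium channels, had 7.23, 7.60 and 7.45 CPM in WT and 2.23, 1.89, 2.40, 3.55 and 2.59 CPM in LSD1-mKO (log2 fold change -1.56, SE 0.221, adjusted p 0.0472, edgeR). 9530091C08Rik (chromosome 9, 68765346 to 68773322) lies inside the span of Rora, and the counts did not use strand. It had 33.5, 31.4 and 22.8 CPM in WT and 8.12, 11.2, 13.5, 9.55 and 11.1 CPM in LSD1-mKO (log2 fold change -1.45, SE 0.206, adjusted p 0.0472, edgeR). In none of these 4 genes did the genotypes overlap.

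**Figure D2:**
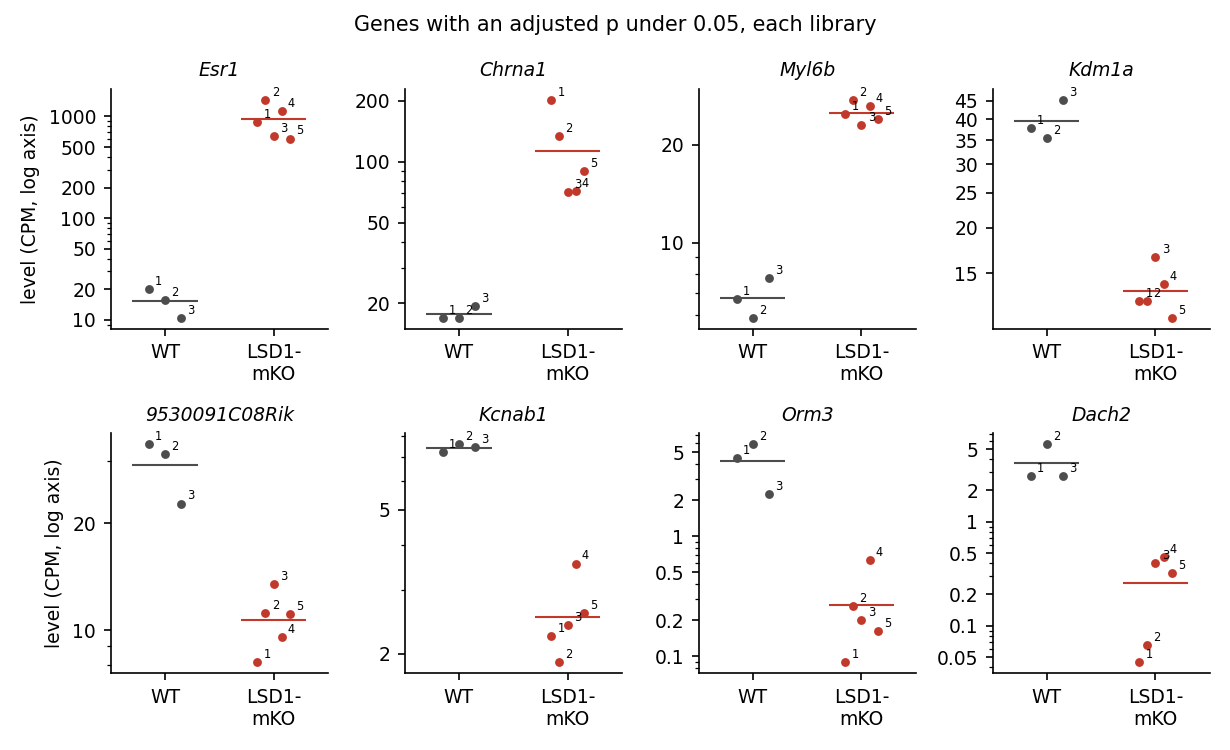
Level of the 8 called genes in each Gas library (CPM, log axis), WT in grey and LSD1-mKO in red. Numbers are replicate numbers and lines are group means. The groups are apart in each panel, by the most in Esr1 and by the least, relative to their spread, in 9530091C08Rik and Chrna1.

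These calls depended on single libraries. Without WT Gas 1, as without WT Gas 2, Esr1 alone was called, and the adjusted p of Myl6b became 0.0819 and 0.0619 (edgeR). Esr1 and Myl6b were called without LSD1-mKO Gas 2, joined by Chrna1 without LSD1-mKO Gas 1, by Kdm1a without LSD1-mKO Gas 3 and by Orm3 without LSD1-mKO Gas 4. Without LSD1-mKO Gas 5 there were 6 calls, of which Esr1, Myl6b and Kdm1a belonged to the 8. Without WT Gas 3, the library that stood apart, 8 genes were called, and Chrna1 and Kcnab1 were not among them (adjusted p 0.111 and 0.0844, edgeR). No direction turned in these fits: log2 fold changes ran from 1.82 to 2.01 for Myl6b, 2.37 to 2.81 for Chrna1, -4.17 to -3.47 for Dach2, -4.58 to -3.78 for Orm3, -1.70 to -1.47 for Kcnab1 and -1.65 to -1.44 for Kdm1a.

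The acetylcholine receptor and synapse list had the highest median log2 fold change of the 34 lists, cell type markers aside, with all libraries, and came after the denervation list without WT Gas 3 (0.36 and 0.49) or in the fit that adjusts for ribosomal protein level (0.34 and 0.39). Of its 19 members that were tested, 1 was called (0.0613% of all genes were). An unadjusted p under 0.05 was reached by 5 with higher values in LSD1-mKO (4.88% of all genes) and by 0 with lower values. Of the 19, 16 had a positive log2 fold change, and the median was 0.46, or 0.36 without WT Gas 3, beside 0.01 and 0.04 for all genes. Beside Chrna1, the beta subunit gene Chrnb1 had 25.0, 33.6 and 22.5 CPM in WT and 56.3, 65.3, 50.5, 48.0 and 40.7 CPM in LSD1-mKO (log2 fold change 0.95, SE 0.213, adjusted p 0.259, edgeR). The delta subunit gene Chrnd had 1.44, 1.24 and 0.532 CPM in WT and 5.76, 5.74, 4.13, 2.55 and 1.51 CPM in LSD1-mKO (log2 fold change 1.81, SE 0.489, adjusted p 0.351, edgeR). For Chrne, which encodes the epsilon subunit of the adult receptor, the values were 11.2, 8.61 and 7.66 CPM and 23.03, 20.2, 10.5, 12.9 and 13.9 CPM (log2 fold change 0.81, SE 0.283, adjusted p 0.459, edgeR), and LSD1-mKO Gas 3 fell within the WT range. Etv4, an ETS transcription factor, had 2.77, 3.49 and 3.94 CPM in WT and 12.6, 10.1, 5.67, 8.73 and 6.47 CPM in LSD1-mKO (log2 fold change 1.37, SE 0.296, adjusted p 0.232, edgeR). Chrnb1, Chrnd, Chrne and Etv4 did not pass the adjusted threshold, and only Chrne of the 4 overlapped between genotypes.

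Promoters of receptor genes are known for E-boxes, which bind myogenic factors, and for the N-box, which binds ETS factors in synaptic nuclei. The 250 bases before the start site are shown for the receptor genes that had an entry in RefSeq (GRCm38.p6) and for Myl6b, the called gene with the smallest spread among LSD1-mKO libraries relative to its mean. Capitals mark CANNTG (E-box) and CCGGAA (N-box) on either strand, with overlapping matches counted apart. A match is no evidence of binding.
Chrna1 at chr2:73580339-73580588, minus strand: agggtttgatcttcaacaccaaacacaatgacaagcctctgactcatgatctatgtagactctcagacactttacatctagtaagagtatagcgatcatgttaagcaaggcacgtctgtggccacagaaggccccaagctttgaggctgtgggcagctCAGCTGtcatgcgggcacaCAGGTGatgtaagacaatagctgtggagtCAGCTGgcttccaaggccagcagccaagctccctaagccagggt
Chrnb1 at chr11:69795938-69796187, minus strand: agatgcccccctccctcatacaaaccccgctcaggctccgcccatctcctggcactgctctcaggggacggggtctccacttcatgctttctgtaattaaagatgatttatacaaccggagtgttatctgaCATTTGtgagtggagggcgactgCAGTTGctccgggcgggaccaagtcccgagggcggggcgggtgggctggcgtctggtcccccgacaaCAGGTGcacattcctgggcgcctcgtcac
Chrne at chr11:70619195-70619444, minus strand: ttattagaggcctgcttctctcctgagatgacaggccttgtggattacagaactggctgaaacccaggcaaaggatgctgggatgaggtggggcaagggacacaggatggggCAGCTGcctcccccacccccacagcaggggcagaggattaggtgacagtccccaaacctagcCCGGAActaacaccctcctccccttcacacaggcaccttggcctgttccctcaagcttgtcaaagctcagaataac
Myl6b at chr10:128498686-128498935, minus strand: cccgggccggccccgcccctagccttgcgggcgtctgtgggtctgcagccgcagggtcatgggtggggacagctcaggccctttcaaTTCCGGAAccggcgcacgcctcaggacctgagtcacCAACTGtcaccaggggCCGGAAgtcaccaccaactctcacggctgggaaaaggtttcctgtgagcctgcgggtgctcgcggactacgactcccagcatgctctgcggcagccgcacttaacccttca
Chrna1 held 3 E-boxes, whose first bases lie 92, 73 and 44 bases before the start, and Chrnb1 held 3. Among 32851 promoter windows of the same length, 12.2% held at least 3 and 66.2% at least 1. Chrne held 1 E-box and 1 N-box, the latter 76 bases before the start, a pair found in 6.75% of windows. Myl6b held 1 E-box and 3 N-box matches, of which 2 overlap on opposite strands, and 0.463% of windows held at least 3.

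Other genes known to change in denervated muscle differed in both directions. Of 17 members tested, Dach2 was called (0.0613% of all genes were). At an unadjusted p under 0.05, 3 had higher and 2 had lower values, beside 4.88% and 4.44% of all genes. Myh8, the perinatal myosin heavy chain, had 9.36, 12.3 and 3.30 CPM in WT and 47.3, 40.7, 19.4, 15.7 and 69.9 CPM in LSD1-mKO (log2 fold change 2.20, SE 0.556, adjusted p 0.316, edgeR). Runx1, a transcription factor that rises in denervated fibers, had 3.52, 5.40 and 2.98 CPM and 6.96, 11.6, 24.9, 5.37 and 5.07 CPM (log2 fold change 1.43, SE 0.536, adjusted p 0.498, edgeR), with LSD1-mKO Gas 3 far above the other 4. Nnmt, a nicotinamide methyltransferase, had 3.91, 5.07 and 15.1 CPM in WT and 2.27 to 4.32 CPM in LSD1-mKO. Its log2 fold change of -1.21 became -0.39 without WT Gas 3. The median of the list moved from 0.12 to 0.49 without WT Gas 3. Of the Schwann cell markers, which stand for nerve in the sample, 6 of 8 had a positive log2 fold change, 0 of 8 reached an unadjusted p under 0.05, and their levels summed to 124 to 249 CPM in WT and 114 to 544 CPM in LSD1-mKO. The part of nerve content in these values was not tested.

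**Figure D3:**
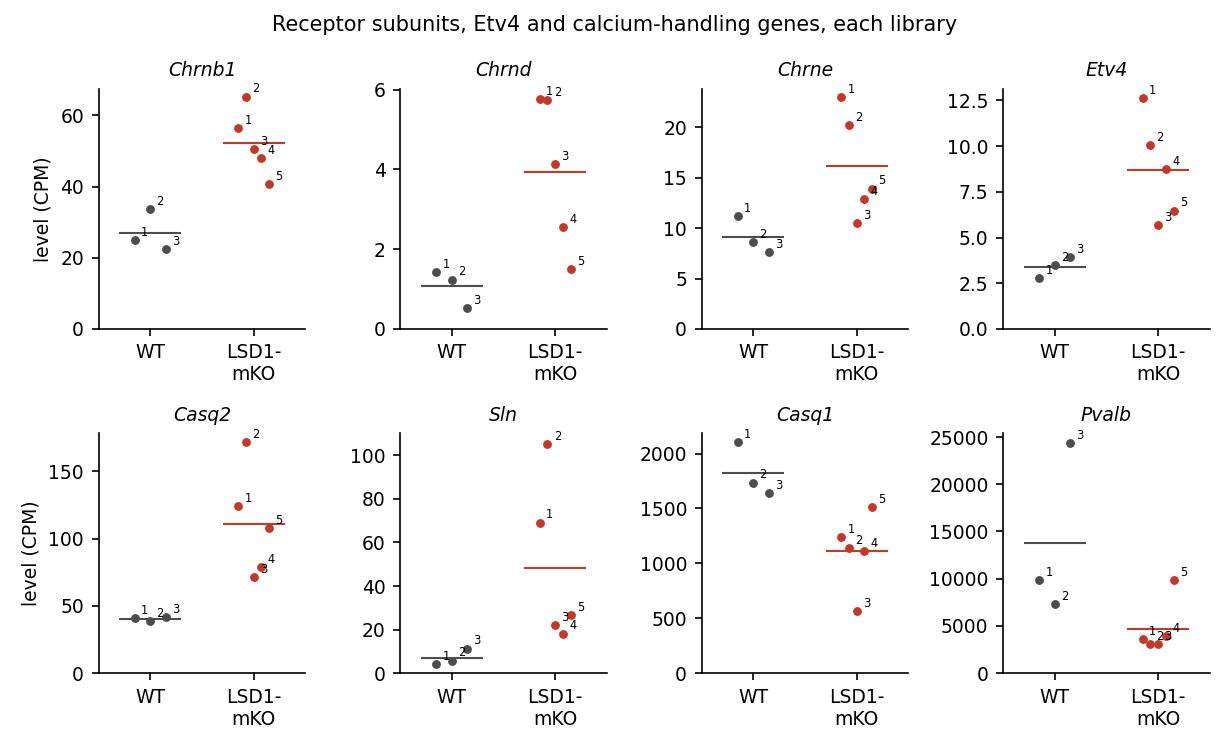
Level of acetylcholine receptor subunits, Etv4 and calcium-handling genes in each Gas library (CPM, axes from 0), WT in grey and LSD1-mKO in red, with replicate numbers and group means as lines. Chrnb1, Chrnd, Etv4, Casq2, Sln and Casq1 do not overlap between genotypes, whereas Chrne and Pvalb do. None of the 8 passed an adjusted p of 0.05.

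Genes of calcium handling differed in both directions. Of 30 tested, 0 were called. At an unadjusted p under 0.05, 2 had higher and 7 had lower values (LSD1-mKO against WT), beside 4.88% and 4.44% of all genes. The median was -0.25, or -0.24 without WT Gas 3. The higher ones were Casq2, the calsequestrin of slow and cardiac muscle, with 41.2, 38.6 and 41.9 CPM in WT and 124, 172, 71.4, 78.8 and 108 CPM in LSD1-mKO (log2 fold change 1.45, SE 0.289, adjusted p 0.185, edgeR), and Sln. Sln encodes sarcolipin, a small inhibitor of the calcium pump, and had 4.26, 5.80 and 11.3 CPM in WT and 69.1, 105, 21.9, 18.2 and 26.7 CPM in LSD1-mKO (log2 fold change 2.78, SE 0.657, adjusted p 0.283, edgeR). In both genes LSD1-mKO Gas 1 and 2 were the highest. Casq1, the calsequestrin of fast muscle, had 2108, 1735 and 1637 CPM in WT and 1240.4, 1136, 565, 1112 and 1509 CPM in LSD1-mKO (log2 fold change -0.72, SE 0.287, adjusted p 0.513, edgeR), so the 2 calsequestrin genes differed in opposite directions. Markers of fiber type differed beside them: 9 of 9 slow markers had a positive log2 fold change, 2 at an unadjusted p under 0.05 (median 0.42, or 0.95 without WT Gas 3), and 9 of 12 fast markers a negative one, 4 at an unadjusted p under 0.05 (median -0.45, or -0.37 without WT Gas 3). The slow markers summed to 1290.0, 1229.8 and 2605 CPM in WT Gas 1, 2 and 3, so that only WT Gas 3 lay within the range of LSD1-mKO. The part of fiber type in the calcium gene values was not tested. Camk2g and Calm3, a calmodulin-dependent kinase and a calmodulin, were at 153 to 174 and 423 to 468 CPM in WT and at 90.5 to 137 and 159 to 399 CPM in LSD1-mKO, without overlap. Pvalb, Trdn and Mrln were lower by amounts that leaned on WT Gas 3, and overlapped. Pvalb, the calcium buffer parvalbumin of fast fibers, had 9871, 7286 and 24335 CPM in WT and 3609, 3088, 3056, 3966 and 9820.1 CPM in LSD1-mKO, and its log2 fold change of -1.55 became -0.86 without WT Gas 3. Likewise that of Trdn (triadin) went from -1.64 to -0.88 and that of Mrln (myoregulin) from -1.99 to -1.25. WT Gas 3 was the highest library for all of Pvalb, Trdn and Mrln.

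Of 25 membrane channels and transporters tested, 0 were called. At an unadjusted p under 0.05, 3 had higher and 1 had lower values (LSD1-mKO against WT), beside 4.88% and 4.44% of all genes. Wnk2, a kinase that regulates chloride cotransport, had 177, 187 and 55.5 CPM in WT and 509, 492, 374, 284 and 233 CPM in LSD1-mKO (log2 fold change 1.44, SE 0.415, adjusted p 0.401, edgeR). Without WT Gas 3, its lowest library, the log2 fold change of Wnk2 was 1.07. The potassium channel genes Kcnn3 (0.532 to 1.07 CPM in WT, 1.35 to 2.86 CPM in LSD1-mKO) and Kcnc4 (39.0 to 56.7 and 64.1 to 77.2 CPM) did not overlap between genotypes either. Cacna2d1, an accessory subunit of the calcium channel of the T tubule, had 295, 292 and 212 CPM in WT and 75.4, 148, 167, 233 and 144 CPM in LSD1-mKO (log2 fold change -0.80, SE 0.301, adjusted p 0.498, edgeR).

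By the naming rule, the 12 largest log2 fold changes in each direction were taken from genes that averaged 50 reads or more, an unadjusted p under 0.01 and no overlap, of which there were 141 higher and 80 lower in LSD1-mKO. Beside Esr1 and Chrna1, the higher ones were Nlrc3 (log2 fold change 3.44), Fam174b (3.39), Kcnk5 (3.12), Srrm4os (2.98), Pdzd3 (2.81), Sln, Rab15 (2.34), Ift122 (2.27), Abca4 (2.21) and Myh8, and none of these 10 passed the adjusted threshold (adjusted p 0.0975 to 0.331, edgeR). Fam174b, a membrane protein, had 2.72, 3.77 and 2.98 CPM in WT and 83.6, 46.7, 16.8, 10.8 and 7.82 CPM in LSD1-mKO. Nlrc3, a regulator of innate immune signaling, had 0.446, 0.506 and 0.106 CPM and 9.51, 6.27, 2.47, 1.64 and 1.13 CPM. Kcnk5, a potassium channel gene, had 1.58, 1.74 and 1.06 CPM and 3.57, 9.20, 38.6, 9.73 and 4.21 CPM, with LSD1-mKO Gas 3 far above the rest. Rab15, a small GTPase of endosomes, had 4.21, 8.10 and 3.83 CPM in WT and 44.6, 38.5, 23.1, 14.5 and 16.2 CPM in LSD1-mKO. Ift122, which encodes a part of the transport machinery of cilia, had 10.2, 5.23 and 2.87 CPM and 58.0, 32.8, 12.3, 19.01 and 26.4 CPM, and its span overlaps Mbd4. Abca4, a transporter of the ATP-binding cassette family, had 2.13, 2.42 and 1.60 CPM and 14.6, 9.99, 10.7, 7.37 and 5.34 CPM. Srrm4os lies within the span of Srrm4, so with counts that ignored strand its reads (0.844 to 2.23 CPM in WT and 4.87 to 23.3 CPM in LSD1-mKO) could stem from either gene.

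The lower ones, beside Kcnab1, reached larger differences in level. Mss51, a mitochondrial protein of fast muscle, had 59.2, 45.8 and 71.1 CPM in WT and 0.402, 0.718, 1.00, 11.5 and 6.58 CPM in LSD1-mKO (log2 fold change -3.90, SE 0.862, adjusted p 0.244, edgeR). 2310065F04Rik, a long non-coding RNA located between Myh3 and Myh2 in the cluster of myosin heavy chain genes on chromosome 11 (67112461 to 67120080), had 53.1, 50.8 and 55.3 CPM in WT and 2.14, 4.57, 1.07, 11.9 and 9.93 CPM in LSD1-mKO (log2 fold change -3.18, SE 0.596, adjusted p 0.165, edgeR). Mettl21e, a lysine methyltransferase of muscle, had 14.6, 20.1 and 19.5 CPM and 0.937, 2.15, 0.334, 4.37 and 3.88 CPM (log2 fold change -2.97, SE 0.562, adjusted p 0.165, edgeR). Thus, in LSD1-mKO Gas 1 to 3 Mss51 was at 1.00 CPM or lower and Mettl21e at 2.15 CPM or lower, whereas LSD1-mKO Gas 4 and 5 kept higher levels. Flrt1, a cell adhesion receptor whose span overlaps Macrod1, had 59.3, 42.5 and 74.5 CPM in WT and 1.74, 2.15, 2.20, 21.6 and 20.4 CPM in LSD1-mKO. Car3, the abundant carbonic anhydrase of muscle and fat, had 3469, 2518 and 4343 CPM and 389, 747, 385, 1942 and 1419.9 CPM. Nrep, a regulator of regeneration first studied in nerve, had 114, 86.8 and 91.4 CPM and 19.4, 19.5, 8.07, 30.7 and 33.4 CPM. The same order of libraries, with LSD1-mKO Gas 4 and 5 nearest to WT, held for these 3 genes.

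The remaining lower genes had fewer reads. 2310015D24Rik, a long non-coding RNA, had 5.01 to 9.01 CPM in WT and 0.467 to 2.82 CPM in LSD1-mKO. Lrp2bp had 4.95 to 6.98 and 0.867 to 2.27 CPM, and Gdap1, a protein of the outer mitochondrial membrane, 4.33 to 8.30 and 0.402 to 3.34 CPM. Greb1, known as a target of the estrogen receptor, had 13.5, 9.51 and 6.49 CPM in WT and 3.57, 3.46, 1.47, 3.82 and 2.64 CPM in LSD1-mKO (log2 fold change -1.73, SE 0.318, adjusted p 0.16, edgeR). Orm1, a paralog of Orm3, had 6.29, 10.02 and 6.49 CPM and 2.68, 3.39, 1.27, 2.27 and 1.78 CPM (log2 fold change -1.74, SE 0.306, adjusted p 0.146, edgeR). Over the 11 lower genes that were not called, adjusted p ran from 0.144 to 0.402 (edgeR). Greb1 and Orm1 had their lowest value in LSD1-mKO Gas 3.

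The LSD1-mKO libraries were not alike in how far they departed from WT. In 9 of the 12 largest decreases LSD1-mKO Gas 4 and 5 held the highest levels of the 5, a pair that was highest in 8.99% of all genes that averaged 50 reads or more. In 7 of the 12 largest increases LSD1-mKO Gas 1 and 2 were the highest, a pair that was highest in 12.3% of those genes. This order was noticed after the values were seen and was not tested. Kdm1a itself did not follow it: its residual level was lowest in LSD1-mKO Gas 5 and highest in LSD1-mKO Gas 3.

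**Figure D4:**
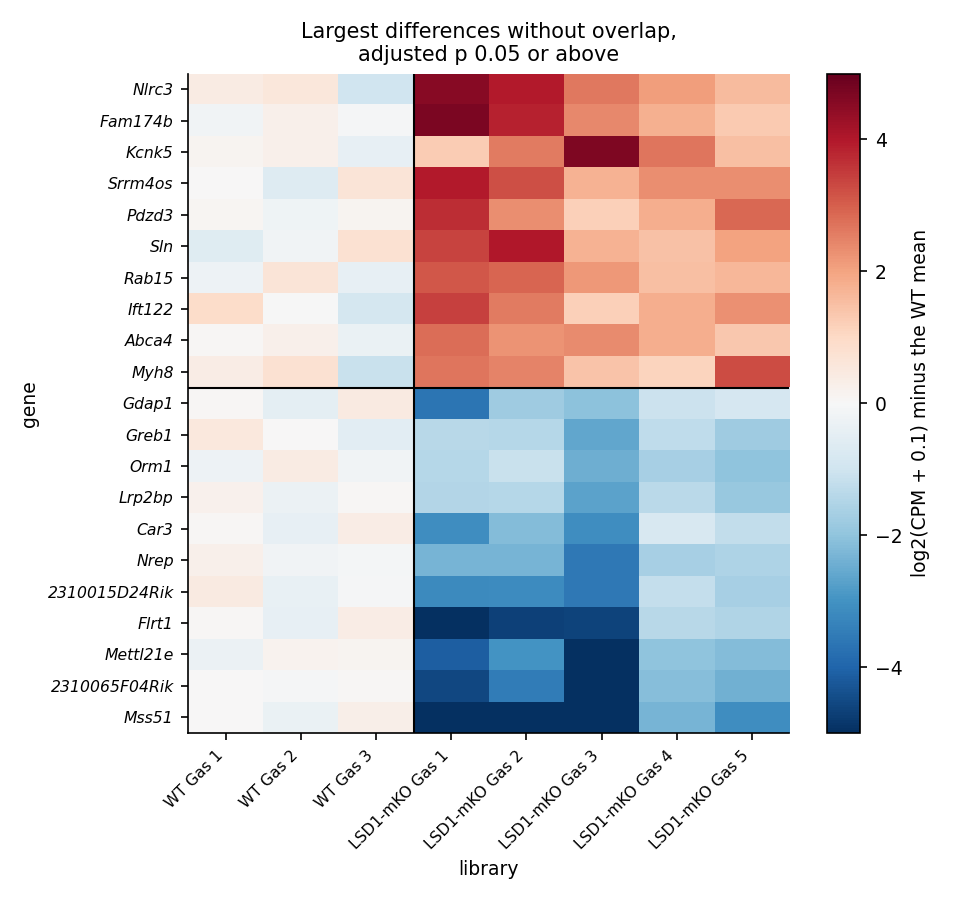
Log2(CPM + 0.1) of each Gas library minus the WT mean for the 21 named genes with an adjusted p of 0.05 or above, colours limited to 5 in both directions. Rows above the line are higher and rows below it lower in LSD1-mKO. LSD1-mKO Gas 4 and 5 are paler than LSD1-mKO Gas 1 to 3 in Mss51, 2310065F04Rik, Mettl21e and Flrt1, and LSD1-mKO Gas 3 stands out in Kcnk5.

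Scaffold proteins of the sarcomere leaned upward. Of 38 tested, 6 had higher and 1 had lower values at an unadjusted p under 0.05, beside 4.88% and 4.44% of all genes. A positive log2 fold change was found in 26, beside 51.2% of all genes, and the median was 0.29, or 0.22 without WT Gas 3. None was called. Actn2, the alpha-actinin of the Z-disc in all fiber types, had 1134, 1175 and 1042 CPM in WT and 2869, 2610.0, 2262, 1643 and 2209.6 CPM in LSD1-mKO (log2 fold change 1.05, SE 0.235, adjusted p 0.253, edgeR). Myom3, the myomesin of intermediate fibers, had 31.8, 36.2 and 16.6 CPM and 143, 129.9, 67.4, 49.6 and 44.5 CPM (log2 fold change 1.62, SE 0.448, adjusted p 0.378, edgeR). Obsl1, a linker of the sarcomere to its surroundings, and Myom2, the myomesin of fast fibers, were also without overlap (32.3 to 62.5 against 73.9 to 159.5 CPM and 1167 to 1692 against 1968 to 2453 CPM). Pdlim7 was the lower member, at 388 to 535 CPM in WT and 227 to 375 CPM in LSD1-mKO. Among 22 chaperones, 3 had higher and 0 had lower values at an unadjusted p under 0.05: Hspb7, a small heat shock protein of muscle, with 566, 582 and 636 CPM in WT and 1844, 1857, 1391, 873 and 1185 CPM in LSD1-mKO (log2 fold change 1.27, SE 0.278, adjusted p 0.244, edgeR), Hspa1l (32.7 to 36.7 and 42.9 to 81.3 CPM) and Hspb6 (362 to 755 and 785 to 1327 CPM). The 3 did not overlap between genotypes, beside 4.1% of all genes that were higher without overlap.

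In the glycolysis and glycogen list, the lower members included several that handle glycogen. Of 50 tested, 0 were called, 3 had higher and 8 had lower values at an unadjusted p under 0.05, 8 were lower without overlap, and the median was 0.00, or -0.09 without WT Gas 3. Of all genes, 4.88% had higher and 4.44% had lower values by that p, and 2.91% were lower without overlap. Phka1, the muscle alpha subunit of phosphorylase kinase, had 551, 648 and 491 CPM in WT and 123, 234, 192, 332 and 255 CPM in LSD1-mKO (log2 fold change -1.31, SE 0.280, adjusted p 0.232, edgeR). Ppp1r3c, a subunit that brings protein phosphatase to glycogen, had 1635, 865 and 949 CPM and 656, 501, 108, 293 and 477 CPM (log2 fold change -1.50, SE 0.462, adjusted p 0.406, edgeR). Ppp1r3d, of the same family, had 8.27 to 12.1 and 3.53 to 6.59 CPM, and Gyg, glycogenin, 303 to 356 and 182 to 294 CPM. Gpd2, the mitochondrial enzyme of the glycerol phosphate shuttle, had 183, 184 and 173 CPM in WT and 35.9, 55.6, 78.4, 128 and 106 CPM in LSD1-mKO (log2 fold change -1.16, SE 0.342, adjusted p 0.402, edgeR). Against these, Gbe1, the branching enzyme of glycogen, had 60.1 to 71.4 CPM in WT and 73.5 to 122 CPM in LSD1-mKO, and Pdk1, a kinase that blocks entry of pyruvate into mitochondria, 36.9 to 61.3 and 64.2 to 123 CPM, both higher without overlap.

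Of 50 genes of the TCA cycle and fatty acid oxidation, 3 had higher and 0 had lower values at an unadjusted p under 0.05, and 8 were higher and 1 lower without overlap, beside 4.88%, 4.44%, 4.1% and 2.91% of all genes. Idh2, a mitochondrial isocitrate dehydrogenase, had 295, 281 and 268 CPM in WT and 491, 433, 397, 372 and 442 CPM in LSD1-mKO (log2 fold change 0.60, SE 0.172, adjusted p 0.395, edgeR). Suclg2 (26.6 to 39.7 and 41.4 to 57.4 CPM) and Acadl (362 to 404 and 428 to 566 CPM) were the others. The median of the list was 0.01. In contrast, 77 of 82 subunits of oxidative phosphorylation, 67 of 76 proteins of the mitochondrial ribosome, 77 of 78 of the cytosolic ribosome and 31 of 37 of the proteasome had negative log2 fold changes. Their medians were -0.62, -0.31, -0.54 and -0.24 with all libraries, and -0.12, -0.02, 0.05 and 0.21 without WT Gas 3. Rps12, for one, had 329, 238 and 1039 CPM in WT and 258, 209, 206, 218 and 449 CPM in LSD1-mKO. Without WT Gas 3 the direction of the cytosolic ribosome and of the proteasome thus turned, and the other 2 lists came close to 0.

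**Figure D5:**
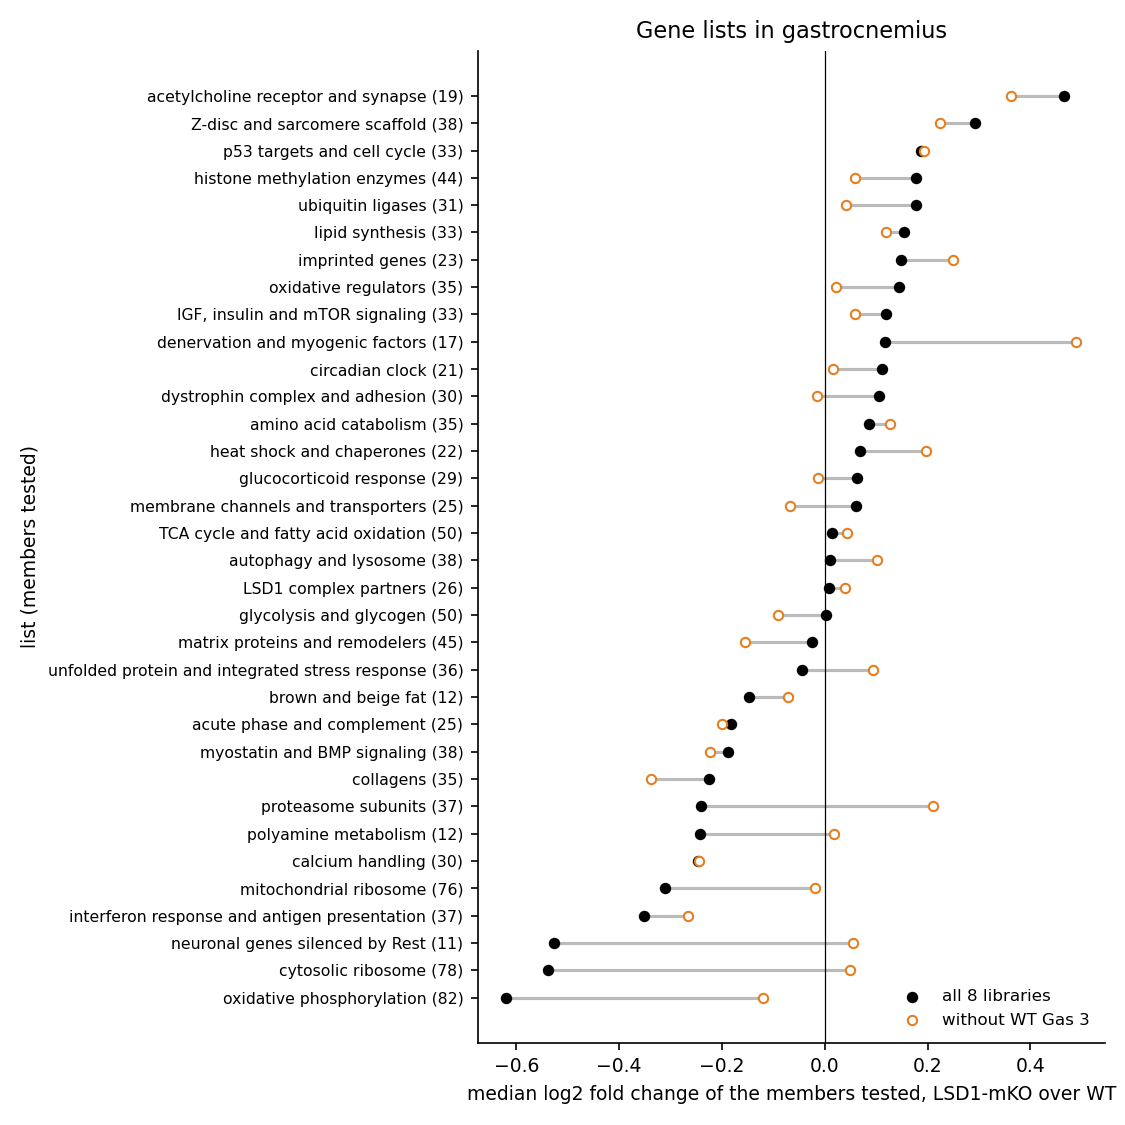
Median log2 fold change (LSD1-mKO over WT) of the members tested in each of 34 lists, whose number stands in brackets, with all 8 libraries (black) and without WT Gas 3 (orange rings). The receptor and synapse list lies at 0.46 and 0.36. Oxidative phosphorylation, the cytosolic ribosome and the proteasome move most when WT Gas 3 is left out, together with the denervation and Rest lists.

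Genes of polyamine metabolism included a pair of enzymes that were lower. Of 12 tested, 0 had higher and 2 had lower values at an unadjusted p under 0.05, beside 4.88% and 4.44% of all genes. The median of the list, -0.24, became 0.02 without WT Gas 3. Smox, spermine oxidase, which is an FAD-dependent amine oxidase related to LSD1, had 275, 292 and 167 CPM in WT and 119, 99.7, 93.4, 121 and 121 CPM in LSD1-mKO (log2 fold change -1.14, SE 0.210, adjusted p 0.16, edgeR). Odc1, the rate-limiting ornithine decarboxylase, had 378, 464 and 373 CPM and 130.1, 189.8, 213, 314 and 359.7 CPM (log2 fold change -0.75, SE 0.301, adjusted p 0.513, edgeR). The genotypes did not overlap in either gene. The log2 fold change of Smox was -1.35 and that of Odc1 -0.79 without WT Gas 3. Smox passed the adjusted threshold in that fit (adjusted p 0.0233, edgeR).

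The interferon and antigen presentation list leaned downward. Of 37 tested, 0 were called, and 10 had lower and 0 had higher values at an unadjusted p under 0.05 (4.44% of all genes had lower values). Of the 37, 5 were lower without overlap (2.91% of all genes were), and 33 had a negative log2 fold change. The median was -0.35, or -0.27 without WT Gas 3. Genes of MHC class II, which cells of the immune system use to present antigen, were in this group. Cd74, the invariant chain, had 44.4, 36.8 and 44.4 CPM in WT and 24.4, 27.2, 20.1, 26.5 and 31.3 CPM in LSD1-mKO (log2 fold change -0.69, SE 0.180, adjusted p 0.324, edgeR). H2-Aa had 14.6, 12.4 and 15.7 CPM and 6.25, 7.90, 6.14, 8.64 and 12.0 CPM (log2 fold change -0.80, SE 0.239, adjusted p 0.402, edgeR), and H2-Ab1 16.4, 15.1 and 18.4 CPM and 7.45, 8.36, 4.74, 9.73 and 14.5 CPM (log2 fold change -0.89, SE 0.297, adjusted p 0.435, edgeR). In H2-Aa and H2-Ab1, LSD1-mKO Gas 5 came closest to WT. H2-Eb1 overlapped, with 14.5 to 28.7 CPM in WT and 7.95 to 17.0 CPM in LSD1-mKO, and its log2 fold change of -0.84 became -0.44 without WT Gas 3. The interferon-induced genes Rsad2 (6.87 to 12.8 and 5.64 to 6.47 CPM), Gbp3 (3.47 to 5.32 and 2.41 to 3.20 CPM) and Ifit1 (2.77 to 6.06 and 1.34 to 2.86 CPM) were low in every library. Without WT Gas 3 their log2 fold changes went from -0.62 to -0.32, from -0.67 to -0.50 and from -0.89 to -0.48.

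Of 25 genes of the acute phase and complement, Orm3 was called (0.0613% of all genes were). At an unadjusted p under 0.05, 7 had lower values, Orm3 included, and 1 had higher values, beside 4.44% and 4.88% of all genes. The exception was Clu, clusterin, an extracellular chaperone, with 50.5, 51.1 and 76.4 CPM in WT and 265, 172, 91.2, 84.2 and 117 CPM in LSD1-mKO (log2 fold change 1.30, SE 0.385, adjusted p 0.402, edgeR). Hp, haptoglobin, had 48.0, 49.5 and 111 CPM and 39.3, 44.6, 36.9, 34.9 and 32.8 CPM (log2 fold change -0.88, SE 0.273, adjusted p 0.406, edgeR). C1qa, C1qb and C1qc, the chains of the first complement component, are made by macrophages, and C1qa had 37.4, 37.2 and 78.3 CPM and 27.9, 26.2, 23.01, 29.1 and 35.1 CPM (log2 fold change -0.85, SE 0.262, adjusted p 0.406, edgeR). For Hp and C1qa the log2 fold change without WT Gas 3, in which both were highest, was -0.36 and -0.39. The macrophage markers, which include C1qa, C1qb and C1qc, summed to 275, 301 and 447 CPM in WT and 247 to 294 CPM in LSD1-mKO. Of the 9 markers 7 were negative, and the median of -0.10 became -0.05 without WT Gas 3. Cd68 differed in the opposite direction without overlap, at 2.23 to 3.60 CPM in WT and 3.83 to 5.87 CPM in LSD1-mKO. None of 9 lymphocyte markers passed the filter on low counts (at most 8 reads in a library). In 6 of 7 neutrophil markers WT Gas 3 and LSD1-mKO Gas 3 were the highest libraries: S100a9 was at 17.6 and 44.2 CPM in these 2 and at 0.957 to 4.37 CPM in the other 6. Lcn2, the exception and the most abundant of them, had 53.7, 63.4 and 39.7 CPM in WT and 115, 82.5, 88.3, 32.1 and 29.0 CPM in LSD1-mKO. The part of immune cell content in the immune gene values was not tested.

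Among 45 matrix proteins and remodelers, 2 had higher and 7 had lower values at an unadjusted p under 0.05, and among 35 collagens 1 and 3. Of all genes, 4.88% had higher and 4.44% had lower values by that p, and 2.91% were lower without overlap. Postn, periostin, a matrix protein of tissue under repair, had 8.02, 5.74 and 14.6 CPM in WT and 24.4, 36.0, 21.3, 18.1 and 26.4 CPM in LSD1-mKO (log2 fold change 1.43, SE 0.329, adjusted p 0.271, edgeR). Col1a2, of type I collagen, had 275, 294 and 275 CPM and 199, 175, 93.4, 194 and 177 CPM (log2 fold change -0.75, SE 0.237, adjusted p 0.414, edgeR), and Adamts5, a protease of proteoglycans, 42.7, 29.3 and 46.1 CPM and 29.1, 29.2, 19.4, 22.5 and 21.4 CPM (log2 fold change -0.69, SE 0.212, adjusted p 0.402, edgeR). Timp2, an inhibitor of metalloproteases (142 to 149 and 102 to 121 CPM), Fmod, fibromodulin (148 to 178 and 87.4 to 147 CPM), and Tnxb, tenascin X (58.5 to 73.9 and 41.4 to 55.9 CPM), were lower without overlap as well. Markers of connective tissue cells differed in the same direction, but some of them are the same genes. Col1a2 stands in the collagen and fibroblast lists, Dcn in the matrix and fibroblast lists and Fmod in the matrix and tendon lists. All 8 fibroblast markers had negative log2 fold changes, 3 at an unadjusted p under 0.05, Col1a2 and Dcn among them. They summed to 1328 to 1993 CPM in WT and 897 to 1067 CPM in LSD1-mKO, without overlap. Of the 6 tendon markers 5 were negative, with a sum of 318 to 405 CPM in WT and 244 to 324 CPM in LSD1-mKO. The medians of the fibroblast and tendon markers, -0.49 and -0.54, became -0.25 and -0.27 without WT Gas 3. Dpt, dermatopontin, a fibroblast marker, had 73.4, 76.6 and 74.3 CPM in WT and 48.5, 57.8, 35.1, 52.9 and 46.8 CPM in LSD1-mKO. The tendon marker Tnmd, tenomodulin, had 13.0, 7.82 and 15.6 CPM and 5.58, 4.63, 2.20, 5.004 and 7.12 CPM. Connective tissue was not the target of the recombinase, and its share of the samples was not tested. The adipocyte marker sum was 591 to 1878 CPM in WT and 537 to 726 CPM in LSD1-mKO, with the highest value in WT Gas 3, and the endothelial, smooth muscle and satellite cell lists had 0 members at an unadjusted p under 0.05.

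Several genes that respond to glucocorticoids, fasting or energy stress had their highest values in a single LSD1-mKO library. Of 29 genes of the glucocorticoid response, 3 had higher and 0 had lower values (LSD1-mKO against WT, unadjusted p under 0.05), beside 4.88% and 4.44% of all genes. The median was 0.06. Ampd3, AMP deaminase, had 21.5, 15.1 and 13.8 CPM in WT and 46.4, 40.2, 102, 32.3 and 25.6 CPM in LSD1-mKO (log2 fold change 1.55, SE 0.430, adjusted p 0.378, edgeR), and Errfi1, an inhibitor of the EGF receptor, 64.5, 55.5 and 60.2 CPM and 131, 96.3, 214, 66.1 and 66.9 CPM. Arrdc3, an arrestin, had 63.7, 29.6 and 61.5 CPM and 55.3, 174, 454, 73.1 and 107 CPM, which overlapped. LSD1-mKO Gas 3 was the highest library for each of these. It was likewise the highest for Ddit4, an inhibitor of mTOR (162, 62.4 and 65.0 CPM in WT, 297, 275, 789, 156 and 191 CPM in LSD1-mKO), for Gabarapl1 of the autophagosome (133, 159 and 59.6 and 169, 209, 758, 178 and 188 CPM), for Slc43a2, an amino acid transporter (20.0, 22.1 and 14.7 and 57.1, 53.1, 175, 34.0 and 25.4 CPM), and for the clock gene Cry2 (52.3, 52.8 and 55.2 and 70.9, 60.8, 217, 77.9 and 73.2 CPM). Without LSD1-mKO Gas 3 their log2 fold changes became 1.25 for Ddit4 (from 1.82), 0.67 for Gabarapl1 (from 1.36), 1.16 for Slc43a2 (from 1.86) and 0.40 for Cry2 (from 0.90). None of the 7 genes was called.

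Within the other degradation and growth lists, no member was called. At an unadjusted p under 0.05, 4.88% of all genes had higher and 4.44% had lower values, and 51.2% of all genes had a positive log2 fold change. Of 38 genes of autophagy and the lysosome, 3 had higher values at an unadjusted p under 0.05, led by Plbd2, a lysosomal phospholipase, with 37.1, 42.8 and 20.4 CPM in WT and 97.6, 68.9, 97.6, 57.8 and 64.4 CPM in LSD1-mKO (log2 fold change 1.20, SE 0.286, adjusted p 0.283, edgeR). Of 31 ubiquitin ligases 2 had higher values, and the median of 0.18 became 0.04 without WT Gas 3. Of 33 genes of IGF, insulin and mTOR signaling, 3 had higher and 2 had lower values. Igf1, a growth factor of muscle, had 45.3, 27.3 and 43.6 CPM in WT and 11.7, 23.8, 22.5, 30.5 and 23.9 CPM in LSD1-mKO, and Akt1, a kinase downstream of it, 81.1, 74.3 and 47.8 CPM and 108, 93.3, 109, 86.8 and 91.6 CPM, the latter without overlap. Of 38 genes of myostatin and BMP signaling, 28 had a negative log2 fold change and 3 had lower values at an unadjusted p under 0.05, among them Fst, follistatin, the antagonist of myostatin, with 13.9, 8.84 and 17.0 CPM and 8.70, 7.90, 8.14, 7.28 and 6.20 CPM (log2 fold change -0.79, SE 0.226, adjusted p 0.395, edgeR). Of 35 genes of amino acid catabolism, 4 had higher values, and of 36 of the unfolded protein and integrated stress response 3 had higher and 1 had lower values, with Psat1, an enzyme of serine synthesis, at 2.72, 2.36 and 3.19 CPM in WT and 7.63, 4.90, 5.80, 8.28 and 3.51 CPM in LSD1-mKO (log2 fold change 1.13, SE 0.304, adjusted p 0.35, edgeR). The clock gene Nr1d1, a repressor, had 387, 292 and 138 CPM and 134, 161, 231, 92.4 and 95.2 CPM, with overlap.

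The partners of LSD1 and other chromatin genes gave little difference. Of 26 genes of LSD1-containing complexes, Kdm1a was called (0.0613% of all genes were). At an unadjusted p under 0.05, 2 had higher and 2 had lower values, Kdm1a among the latter, beside 4.88% and 4.44% of all genes. Mta1, a subunit of the NuRD complex, had 48.2 to 59.5 CPM in WT and 65.0 to 82.7 CPM in LSD1-mKO. Of 44 histone methylation enzymes 2 had higher and 2 had lower values, with Setd8, the lysine 20 methyltransferase of histone H4, at 219, 172 and 175 CPM in WT and 139.5, 115, 74.1, 106 and 116 CPM in LSD1-mKO (log2 fold change -0.78, SE 0.211, adjusted p 0.351, edgeR). Only 11 of 32 neuronal genes that the repressor Rest silences passed the filter on low counts, and 0 of the 11 reached an unadjusted p under 0.05. Their median of -0.53 became 0.06 without WT Gas 3, where Snap25, a protein of synaptic vesicle fusion, had 7.45 CPM against 0.248 to 1.73 CPM elsewhere. Imprinted genes differed more often: of 23, 4 had higher and 3 had lower values by that p, beside 4.88% and 4.44% of all genes, and 0 were called. H19, an imprinted RNA of growing muscle, had 633, 779 and 564 CPM in WT and 2859.5, 2254, 965, 891 and 1153 CPM in LSD1-mKO (log2 fold change 1.30, SE 0.415, adjusted p 0.415, edgeR). Of 33 targets of p53 and genes of the cell cycle, 0 reached an unadjusted p under 0.05. Of 12 genes of brown and beige fat 1 did, Cidea (1.98 to 3.21 and 3.09 to 8.44 CPM), and of 33 of lipid synthesis 2, Acaca (4.89 to 7.97 and 5.83 to 16.8 CPM) and Fasn (13.1 to 21.1 and 13.6 to 67.9 CPM), all 3 with overlap and higher in LSD1-mKO. Of 35 oxidative regulators, 1 had higher and 1 had lower values, and of 30 genes of the dystrophin complex and adhesion 1 and 2, with Itga7, the laminin-binding integrin of muscle, at 80.9, 88.7 and 66.1 CPM and 176, 157, 117, 94.3 and 117 CPM (log2 fold change 0.75, SE 0.234, adjusted p 0.406, edgeR).

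The same genotypes were compared in the soleus (Sol), which is rich in slow fibers, with separate libraries. There 125 of 13342 genes were called (0.937%), and of the 8 genes called in Gas, 7 were tested. Kdm1a, Esr1, Myl6b and Dach2 were called in both muscles in the same direction. These are 50% of all 8 Gas calls, a set that includes Orm3, which was not tested in Sol. They are 3.36% of the Sol calls among the 12843 genes tested in both muscles. Kdm1a, the targeted gene, and Esr1, of which the transgene carries a part, differ by design in both muscles. Both shares include them, and only Myl6b and Dach2 are shared beyond them. Myl6b started from a higher level in Sol, with 120.0, 146 and 69.5 CPM in WT and 318, 300.3, 398, 493 and 426 CPM in LSD1-mKO, and its log2 fold change was 1.79 there. Dach2 had 35.0, 15.2 and 24.1 CPM in WT Sol and 0.0361, 0.743, 0.542, 3.84 and 4.25 CPM in LSD1-mKO Sol. Chrna1 had 53.8, 56.9 and 57.6 CPM and 180.0, 114, 134, 76.7 and 101 CPM, a log2 fold change of 1.11 (adjusted p 0.0529, edgeR). Kcnab1 was low in Sol in both genotypes (1.61 to 3.07 CPM). Of the 21 named genes that were not called in Gas, Pdzd3, Rab15 and Mettl21e were called in Sol.

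Whether the effect of genotype differed between Gas and Sol was tested as an interaction over the 16 libraries. The labels do not say whether Gas and Sol came from the same mice, and this fit took all libraries as independent. A fit with the replicate number as a block is given in the last section. Of 13749 genes, 0 passed an adjusted p of 0.05 (smallest 0.117, edgeR quasi-likelihood test), 690 (5.02%) had an unadjusted p under 0.05, and DESeq2 called 20. The 5 smallest p belonged to Tas1r1, Lrp2bp, Aldoart2, Acad12 and Ndrg4. Acad12, an acyl-CoA dehydrogenase, had 15.7, 12.8 and 13.8 CPM in WT Gas and 30.4, 28.5, 19.7, 26.6 and 25.4 CPM in LSD1-mKO Gas, and 23.2, 25.3 and 22.6 CPM in WT Sol and 17.3, 20.8, 19.02, 22.3 and 22.4 CPM in LSD1-mKO Sol (interaction 1.09, SE 0.217, adjusted p 0.298, edgeR). The genotypes of Acad12 overlapped in neither muscle and lay in opposite order. In Sol they were barely apart, and the log2 fold change there was -0.22 (SE 0.135, adjusted p 0.472, edgeR). Ndrg4 had 2.48, 3.32 and 5.64 CPM in WT Gas and 5.85, 7.31, 4.13, 3.91 and 3.83 CPM in LSD1-mKO Gas, against 7.08, 6.15 and 7.71 CPM and 68.5, 46.4, 45.9, 59.3 and 19.4 CPM in Sol (interaction -2.35, SE 0.491, adjusted p 0.298, edgeR). The genotypes overlapped in Gas and did not in Sol. Tas1r1, a taste receptor subunit, had 0.532 to 2.23 CPM over the 8 Gas libraries. In Sol it had 0.0562, 0.152 and 0.0612 CPM in WT and 2.60, 1.86, 1.31, 1.18 and 1.31 CPM in LSD1-mKO (log2 fold change 4.20, adjusted p 0.00665, edgeR). Aldoart2 is a retrogene of Aldoa, the main aldolase of muscle, and its reads are uncertain for that reason.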

How the data were processed

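Poly(A) RNA of Gas was read from one end over 75 bp. The authors used STAR for alignment to mm10 (GRCm38) and, per the file headers, featureCounts 1.5.2 for counts over the exons of the iGenomes UCSC annotation, with no strand option and without reads that mapped to several places. The deposited counts are raw reads per gene for each library, and 0 columns belonged to other samples. Depth was 10130415 to 21594751 reads per library, and intervals and limits from it cover counting error only. The authors' tables of comparisons (fold changes and p-values) were not used.

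Libraries were grouped by the genotype and tissue labels. The labels do not state how replicates were collected beyond a number, so p-values measure the spread between these samples, which may be technical. Counts were analysed with edgeR 4.0.16 in R 4.3.3: genes were kept by filterByExpr (minimum count 10), scaled by TMM and tested with glmQLFTest (quasi-likelihood, newer form of the fit, two-sided, Benjamini-Hochberg adjusted over all genes tested, threshold 0.05). CPM values use TMM-scaled totals, and principal components log2 CPM with a prior count of 2. Sol was fitted in the same way, and the interaction over 16 libraries. Pathway lists, markers and the naming rule (called genes, the 12 largest changes in each direction with a mean of at least 50 reads, an unadjusted p under 0.01 and no overlap, 4 to 8 members of each list by p, and 5 interaction genes) were chosen with earlier results of these data known. Some genes are not reported here. Coordinates and promoters come from RefSeq tables (GRCm38.p6), which held 4 of 5 promoters looked up. DESeq2 1.42.0, limma 3.58.1, RLE scaling, no filter, other forms of the fit and leaving out libraries were alternatives. In simulated data with 200 changed genes in Gas (12922 genes), the quasi-likelihood test recovered 188 with 13 false calls and limma voom 189 with 11. The exact test (gene-wise) recovered 195 with 29. Such counts depend on the size of change and the spread between libraries that were simulated. They do not give the share of changed genes that a test finds in the real libraries. No pair of replicates was a duplicate: chi-square per degree of freedom was 20.2 or more.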

Additional observations from a re-analysis of the deposited data

Results flagged for a closer look

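Among 130 values checked for a library that stood apart from the other 4 LSD1-mKO Gas libraries, 15 passed Dixon's 95% limit, where chance gives 1 in 20, or 6.5. Of these, 9 were in LSD1-mKO Gas 3, 4 in LSD1-mKO Gas 5 and 2 in LSD1-mKO Gas 1. LSD1-mKO Gas 3 had 38.6 CPM of Kcnk5 (3.57 to 9.73 CPM in the other 4), 102 CPM of Ampd3 (25.6 to 46.4), 217 CPM of Cry2 (60.8 to 77.9), 789 CPM of Ddit4 (156 to 297), 758 CPM of Gabarapl1 (169 to 209), 175 CPM of Slc43a2 (25.4 to 57.1) and 44.2 CPM of S100a9 (1.38 to 4.37). It was lowest in Col1a2, with 93.4 CPM (175 to 199), and in Ppp1r3d, with 3.53 CPM (6.28 to 6.59). LSD1-mKO Gas 5, the library with the highest ribosomal protein level of its group, had 449 CPM of Rps12 (206 to 258), 9820.1 CPM of Pvalb (3056 to 3966), 17.0 CPM of H2-Eb1 (7.95 to 10.2) and 1.73 CPM of Snap25 (0.261 to 0.491). LSD1-mKO Gas 1 had 82.7 CPM of Mta1 (65.0 to 69.0) and 2.23 CPM of Tas1r1 (1.00 to 1.24).

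Among the named genes checked, 3 had genotypes that overlapped in neither muscle and lay in opposite order in Gas and Sol. The log2 fold change of Gas minus that of Sol was -3.36 for Lrp2bp, 1.09 for Acad12 and 0.77 for Acadl. How many of all genes tested do the same was not counted, so the 3 cannot be set against a share. The difference between muscles passed no adjusted threshold in any of them (interaction adjusted p 0.117 for Lrp2bp, 0.298 for Acad12 and 0.651 for Acadl, edgeR). Nor did the genotype effect within Sol (adjusted p 0.15 for Lrp2bp, 0.472 for Acad12 and 0.323 for Acadl, edgeR).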

How the results depend on the processing

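The 8 calls in Gas became 117 with the edgeR exact test (gene-wise dispersions), 324 with one common dispersion, 123 with DESeq2, 340 with limma voom, 5 with robust quasi-likelihood, 4 with its older form and 67 with all 16 libraries in one fit. They numbered 1 to 8 when each library was left out in turn, and 9, of which 4 belonged to the 8, without WT Gas 3 and LSD1-mKO Gas 5, a setting chosen after seeing the data. RLE scaling gave 7, no filter 6 and the ribosomal protein level as a covariate 8, of which 6 belonged to the 8. With the replicate block 3 genes were called, 1 of them (Esr1) among the 8. The numbers did not pair the genotypes (correlations of deviations 0.188, 0.329 and -0.167), and the cause of the lost calls was not tested. The interaction, with 0 calls, gave 20 with DESeq2, 3 with the replicate block across muscles (Gas and Sol libraries of the same number correlated at 0.212 to 0.359 in 5 LSD1-mKO pairs and at 0.123, -0.515 and -0.257 in WT) and 0 to 1 when each library was left out. Of 2298 fits of 115 named genes, 11 turned direction. Aldoart2 had -0.22 with limma voom, -0.12 to 0.25 leaving out 1 library (-0.12 without WT Gas 3, -0.02 without LSD1-mKO Gas 1, -0.03 without LSD1-mKO Gas 5) and -0.19 without both libraries above. Tas1r1 had 0.17 with the replicate block and -0.34 to 0.42 leaving out 1 library (0.42 without WT Gas 1, 0.04 without LSD1-mKO Gas 3, 0.02 without LSD1-mKO Gas 5). S100a9 ran from -1.40 without LSD1-mKO Gas 3 to 2.91 without WT Gas 3, and Snap25 from -2.62 without WT Gas 1 to 0.34 without WT Gas 3. Of 920 list medians, 32 moved by over 1 SD of the library means, 11 of them without WT Gas 3. The exact tests, DESeq2 and limma voom kept all 8 calls. Depth bears most on called genes with few reads, Dach2 and Orm3, which averaged 24.9 and 29.4 reads.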
